A study of Mus musculus with 6 samples.

Results

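Bone morphogenetic proteins (BMPs) are secreted ligands of the TGF-beta superfamily, and 6 of their genes (Bmp2 to Bmp7) were followed here with 3 genes for secreted proteins that bind BMPs and keep them from their receptors (Nog for noggin, Grem1 for gremlin 1, Chrd for chordin). The 9 genes were chosen by symbol in the deposited tables, out of 55421 genes counted, and all 9 passed the filter on low counts, which left 18838 genes for testing. RNA came from femur bone of C57BL/6 mice, aged 12 weeks and labelled WT, as 3 control and 3 phlebotomy libraries, and the study asked how the RNA of primary osteocytes differs after blood loss. Every group shares strain, age, genotype label and an osteocyte-enriched preparation of bone, and the only difference the labels give is phlebotomy, the removal of blood, with neither its volume nor its time. The labels do not tie libraries to separate mice, so a p-value here speaks for the spread of these libraries, which may be technical.

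A BMP dimer brings type I and type II serine/threonine kinase receptors together, and the type I receptor phosphorylates SMAD1, SMAD5 and SMAD9, which enter the nucleus with SMAD4 and switch on genes such as Id1 and Smad6. BMPs were named for their ability to induce bone, and BMP2 and BMP7 are strongly osteogenic, whereas BMP3, which bone cells also make, restrains bone formation. BMP6 and BMP2 also have a role in iron balance, since both, made in the liver, induce the iron hormone hepcidin in hepatocytes, which is the link to the erythroferrone of the series title: erythroferrone binds such BMPs.

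Libraries held 11219243 to 19015588 gene counts. They are called control 1, 2 and 4 and phlebotomy 1, 2 and 4 after the numbers in the deposited column names; columns with the initial P were taken as phlebotomy, and those with N as control by elimination. Phlebotomy 2, though labelled WT, held 2288 counts of a Neo sequence, 920 of EGFP and 403 of DsRed, from a source that was not tested. Control libraries held at most 12, 6 and 0. The fold changes of members and of the pathway genes named below are therefore also given without phlebotomy 2. Levels, shares and marker sums are given by library, or with their range without phlebotomy 2 where that changes an overlap. Osteocyte markers were abundant in every library, with 8 of 8 detected and a summed level of 23580 to 50200 CPM (counts scaled to library size, with the authors' TMM adjustment) in control and 13240 to 25570 CPM in phlebotomy libraries. Skeletal muscle markers summed to only 6.16 to 9.75 CPM in control and 9.96 to 11.9 CPM in phlebotomy libraries, so that the groups did not overlap. Of these markers, Ckm had no counts in some library. Other cells were present too: neutrophil markers summed to 13940 to 33520 CPM and erythroid markers to 4650 to 10760 CPM over the 6 libraries.

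The start regions of 5 members (Bmp4, Bmp5, Bmp6, Grem1 and Chrd) were matched in the RefSeq promoter table (GRCm38.p6). The 250 bases before the start annotated by RefSeq are shown for the 3 ligands among them. The letters ACGTG, a form of the core of hypoxia-response elements, were searched on both strands because blood loss lowers oxygen delivery. They are in capitals, and other forms of that core were not searched. The Bmp4 stretch is chr14:46390670-46390919 on the minus strand, the Bmp6 stretch chr13:38345466-38345715 on the plus strand, and the Bmp5 stretch chr9:75775115-75775364 on the plus strand. For Bmp6 the GENCODE gene begins upstream, at 38345107, so that the stretch shown lies inside that gene model, whereas those of Bmp4 and Bmp5 end at their GENCODE starts.
Bmp4: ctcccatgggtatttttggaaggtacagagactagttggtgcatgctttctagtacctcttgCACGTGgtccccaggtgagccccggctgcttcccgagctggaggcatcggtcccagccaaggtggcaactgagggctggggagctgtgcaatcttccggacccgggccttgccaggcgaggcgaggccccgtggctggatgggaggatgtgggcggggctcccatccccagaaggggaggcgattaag
Bmp6: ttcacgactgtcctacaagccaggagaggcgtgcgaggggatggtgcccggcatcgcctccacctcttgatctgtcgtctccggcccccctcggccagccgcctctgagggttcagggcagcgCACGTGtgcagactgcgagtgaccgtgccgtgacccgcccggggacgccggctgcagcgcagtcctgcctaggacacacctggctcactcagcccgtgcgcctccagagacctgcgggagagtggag
Bmp5: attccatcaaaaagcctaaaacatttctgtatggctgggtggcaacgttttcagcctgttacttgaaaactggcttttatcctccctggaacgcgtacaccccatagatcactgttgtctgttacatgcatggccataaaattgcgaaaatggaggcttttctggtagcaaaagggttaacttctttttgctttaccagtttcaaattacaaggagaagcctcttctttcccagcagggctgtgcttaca
Bmp4 and Bmp6 each held 1 place where ACGTG on both strands overlaps as the palindrome CACGTG, and Bmp5, Grem1 and Chrd held none. Of all 32851 promoter windows of the same length, 16.6% held ACGTG. The letters GGCGCC, a GC-rich element that BMP SMADs can bind, were found once each in the Grem1 and Chrd windows and in 9.59% of all windows, and TATAAA in none of the 5 and in 12.4% of all. The GC content was 63.2% for Bmp4, 68.8% for Bmp6 and 42.8% for Bmp5, against a median of 52.4% over all windows. A match describes letters only, and no binding was measured.

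In control bone, Bmp2 was the most abundant member by a wide margin. Levels of different genes were compared as scaled CPM per kb of exon. Bmp2 (chromosome 2, 133552159 to 133562885, GRCm38, ENSMUSG00000027358) stood at 200.9 ± 47.0 CPM per kb (SD, n = 3 control libraries). Bmp7 followed at 13.7 ± 3.78 and Bmp4 at 11.5 ± 1.97 CPM per kb, and these neighbours overlapped between libraries. Bmp3 came next at 7.96 ± 0.817 CPM per kb, below every Bmp4 value. Grem1 at 5.48 ± 1.01 and Bmp6 at 4.71 ± 0.762 CPM per kb overlapped each other. Bmp5 at 2.57 ± 0.331, Nog at 1.48 ± 0.223 and Chrd at 0.250 ± 0.123 CPM per kb were the lowest, each apart from its neighbours. The order after phlebotomy was the same except that Bmp4 stood above Bmp7 and Grem1 above Bmp3, and in both pairs the phlebotomy libraries overlapped.

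**Figure D1:**
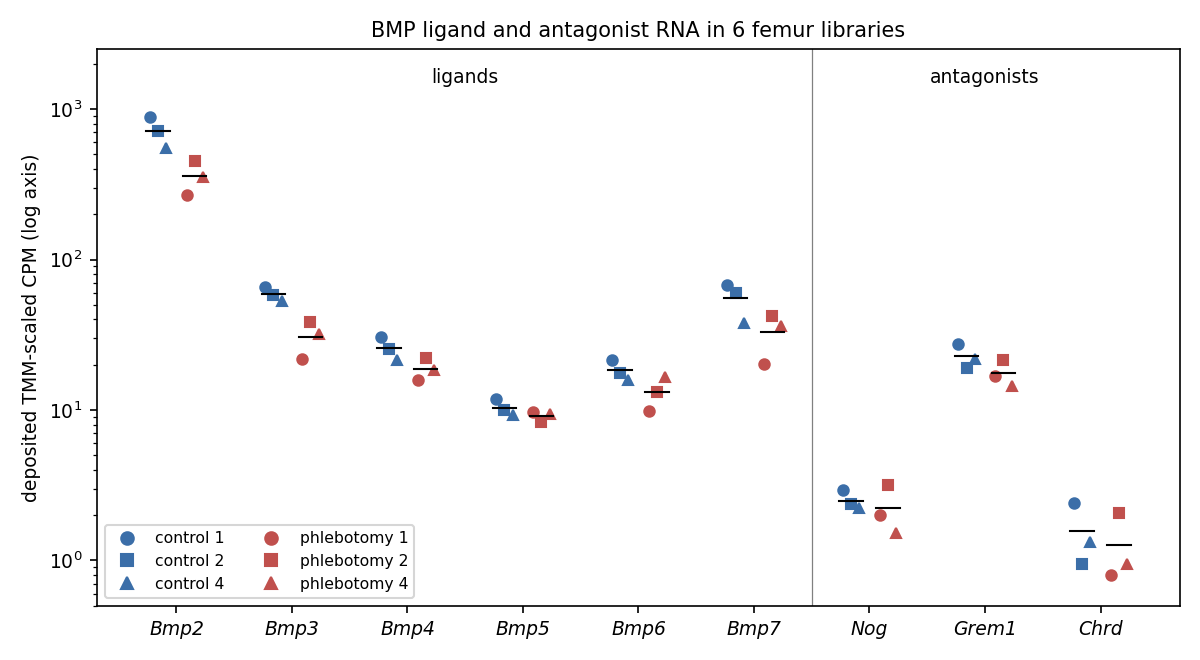
Deposited TMM-scaled CPM (log axis) of the 6 ligands and 3 antagonists in each of 6 femur libraries (points) with the group mean (black lines, n = 3). Bmp2 lies between 268.1 and 881.1 CPM and Chrd between 0.799 and 2.42 CPM, and Bmp2 and Bmp3 are the members whose control and phlebotomy points do not overlap.

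Bmp2 and Bmp3 were lower in every phlebotomy library than in any control library, at about the same fold. Neither passed the threshold of 0.05 over all genes in edgeR with all 6 libraries, in which 0 of the 9 members were called lower and 0 higher. The background of that test was 0% of genes called lower and 0.0159% called higher. All 9 members had a log2 fold change below 0, as had 50.2% of all genes tested, and the median of the 9 was -0.38 against -0.00 over all genes. Groups did not overlap, with phlebotomy below, for 2 of the 9 members and 14.5% of all genes, and with phlebotomy above for 0 members and 7.22% of all genes. Without phlebotomy 2 the treated libraries lay below all controls for 7 of 9 members (all but Bmp5 and Bmp6), and above for 0, but so they did for 29.9% and 14.6% of all genes. Without control 4 the first of these counts was 6 of 9, for which the share of all genes was not counted. At an unadjusted p under 0.05, 3 of 9 members (Bmp2, Bmp3 and Bmp7) were lower, against 9.42% of all genes, and 0 were higher, against 7.01%.

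Bmp2, which encodes an osteogenic ligand that fracture repair depends on, was at 881.1, 714.7 and 547.2 CPM in control 1, 2 and 4 and at 268.1, 452.3 and 355.2 CPM in phlebotomy 1, 2 and 4. The lowest control library thus lay above the highest phlebotomy library, which was phlebotomy 2. The libraries held 4697 to 12758 Bmp2 counts each, so counting error is small beside the spread between libraries. The mean was 714.3 ± 167.0 CPM in control and 358.6 ± 92.1 CPM after phlebotomy (SD, n = 3), a log2 fold change of -0.92 ± 0.22 (SE, edgeR adjusted p 0.139). Leaving out phlebotomy 2 gave -1.11 ± 0.25, which passed (edgeR adjusted p 0.0339), in a fit that called 2.99% of genes lower. DESeq2 on all 6 libraries gave -0.90 (adjusted p 0.0116, with 1.09% of genes called lower). Without phlebotomy 1, edgeR gave -0.73 ± 0.22 (adjusted p 0.613), in a fit that called 0% of genes lower.

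Bmp3 (chromosome 5, 98854415 to 98884396, ENSMUSG00000029335), the BMP that restrains bone formation, was at 65.4, 58.0 and 53.4 CPM in control 1, 2 and 4 and at 21.7, 38.6 and 31.8 CPM in phlebotomy 1, 2 and 4. Groups were again apart, and phlebotomy 1 was the lowest and phlebotomy 2 the highest of the treated libraries, as for Bmp2. The mean was 58.9 ± 6.04 CPM in control and 30.7 ± 8.49 CPM after phlebotomy (SD, n = 3). Its log2 fold change was -0.86 ± 0.20 (SE, edgeR adjusted p 0.139), -1.05 ± 0.21 without phlebotomy 2 (adjusted p 0.0280) and -0.65 ± 0.16 without phlebotomy 1 (adjusted p 0.613). DESeq2 called Bmp3 lower too (adjusted p 0.0185), whereas the fit without phlebotomy 1 called 0% of all genes lower. The osteogenic Bmp2 and the restraining Bmp3 thus stood at 50.2% and 52.1% of their control means.

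Bmp7 (chromosome 2, 172868012 to 172940321), an osteogenic ligand also needed for kidney development, was at 67.4, 59.9 and 38.1 CPM in control 1, 2 and 4 and at 20.3, 42.2 and 36.4 CPM in phlebotomy 1, 2 and 4. Control 4 lay below phlebotomy 2, so the groups overlapped. Bmp7 had a log2 fold change of -0.66 ± 0.26 (SE, edgeR adjusted p 0.244), which ran from -0.90 to -0.39 with a library left out. Without phlebotomy 2 it was -0.87 ± 0.28 (edgeR adjusted p 0.0830).

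Bmp4 (chromosome 14, 46383520 to 46390669), the close relative of Bmp2, was at 30.4, 25.5 and 21.6 CPM in control 1, 2 and 4 and at 15.7, 22.2 and 18.6 CPM in phlebotomy 1, 2 and 4. Phlebotomy 2 lay above control 4, which was the only overlap. Bmp4 had a log2 fold change of -0.38 ± 0.20 (SE, edgeR adjusted p 0.357), and -0.50 ± 0.22 without phlebotomy 2 (adjusted p 0.159).

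Bmp6 (chromosome 13, 38345107 to 38500302), the BMP best known for reporting iron load to hepatocytes from liver endothelium, was at 21.6, 17.6 and 15.8 CPM in control 1, 2 and 4 and at 9.82, 13.1 and 16.7 CPM in phlebotomy 1, 2 and 4. Phlebotomy 4 lay above control 4, so that the treated library nearest to control was a different one than for Bmp2. The log2 fold change was -0.38 ± 0.23 (SE, edgeR adjusted p 0.417) with all libraries, -0.38 ± 0.26 without phlebotomy 2 and -0.19 ± 0.22 without phlebotomy 1 (edgeR adjusted p 0.362 and 0.842). Txndc5, on the opposite strand, shares 224 of the 3900 exonic bases of Bmp6 and held 8959 counts against 1409 for Bmp6. The library kit does not mark strand, so reads in the shared stretch cannot be told apart.

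Bmp5 (chromosome 9, 75775364 to 75900310), a relative of Bmp6 and Bmp7 whose loss gives mice short ears, was at 11.8, 10.03 and 9.22 CPM in control 1, 2 and 4 and at 9.76, 8.30 and 9.43 CPM in phlebotomy 1, 2 and 4. The groups overlapped, and phlebotomy 2 was here the lowest of the 6 libraries. The log2 fold change was -0.08 ± 0.22 (SE, edgeR adjusted p 0.874), with -0.02 ± 0.23 without phlebotomy 2 (adjusted p 0.964), and it turned to 0.07 with library size alone as scaling. Gm26903 on the opposite strand shares 1878 of the 4025 exonic bases of Bmp5, but held 5 counts against 885.

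The antagonists had log2 fold changes nearer to 0 than Bmp2 and Bmp3, as had the ligands Bmp4, Bmp5, Bmp6 and Bmp7. None of the antagonists was below an unadjusted p of 0.05, and neither were Bmp4, Bmp5 and Bmp6. Grem1 (chromosome 2, 113746164 to 113758646), whose product binds BMP2 and BMP4, was at 27.3, 18.99 and 22.0 CPM in control 1, 2 and 4 and at 16.8, 21.5 and 14.4 CPM in phlebotomy 1, 2 and 4. The groups overlapped through control 2 and phlebotomy 2, at a log2 fold change of -0.29 ± 0.20 (SE, edgeR adjusted p 0.490), or -0.45 ± 0.22 without phlebotomy 2 (adjusted p 0.204). Nog (chromosome 11, 89300638 to 89302332), the noggin gene, was at 2.93, 2.35 and 2.22 CPM in control 1, 2 and 4 and at 1.998, 3.19 and 1.53 CPM in phlebotomy 1, 2 and 4. Phlebotomy 2 held the highest Nog level of all and phlebotomy 4 the lowest. Its log2 fold change was -0.08 ± 0.34 (SE, edgeR adjusted p 0.926) and -0.41 ± 0.36 without phlebotomy 2 (adjusted p 0.489), and it turned to 0.11 without phlebotomy 4.

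Chrd (chromosome 16, 20733127 to 20742384), the chordin gene, was at 2.42, 0.952 and 1.32 CPM in control 1, 2 and 4 and at 0.799, 2.06 and 0.943 CPM in phlebotomy 1, 2 and 4. Control 1 and phlebotomy 2 were the high libraries, 1 of each group. The libraries held 14 to 31 Chrd counts, and the exact Poisson 95% interval of the lowest was 7.65 to 23.5 counts, which covers counting error only. The log2 fold change was -0.20 ± 0.47 (SE, edgeR adjusted p 0.857), with -0.71 ± 0.50 without phlebotomy 2 (adjusted p 0.382) and 0.22 without control 1. With so wide an error, a log2 fold change of the size seen for Bmp2 could not be told from 0 in Chrd. Thpo, on the opposite strand, shares 239 of 6258 exonic bases with Chrd and held 35 counts against 121.

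**Figure D2:**
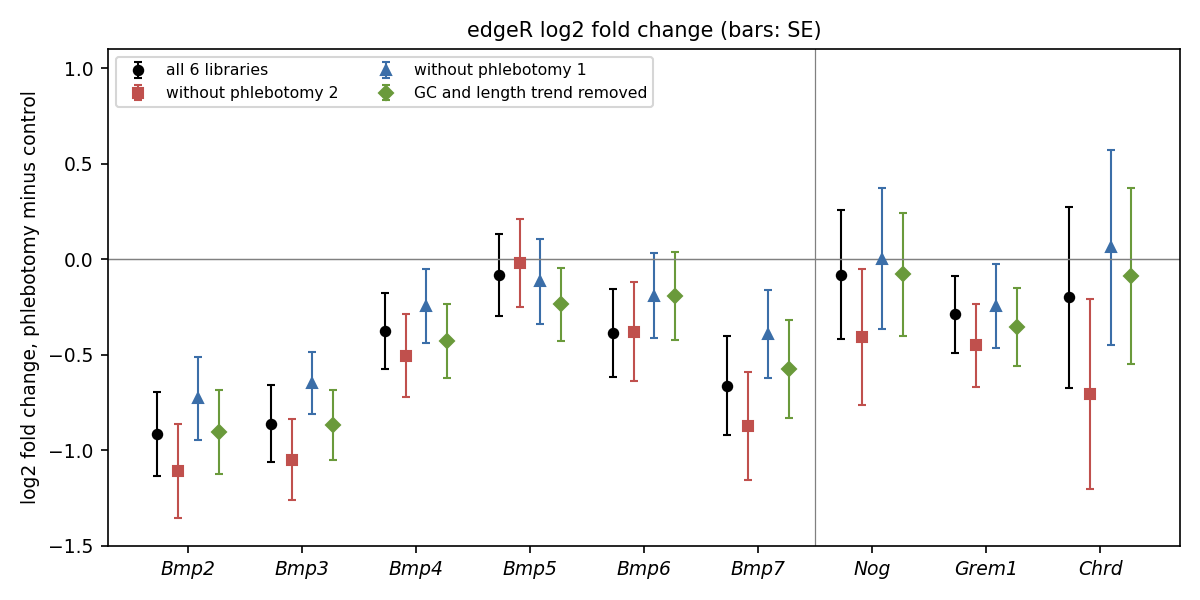
edgeR log2 fold change (phlebotomy minus control) of each member with its SE (bars), with all 6 libraries, without phlebotomy 2, without phlebotomy 1 and with a GC and length trend removed. Bmp2 stays between -1.11 and -0.73 and Bmp3 between -1.05 and -0.65 in these 4 fits, while Chrd ranges from -0.71 to 0.06.

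Summed per kb, the 6 ligands came to 295.4, 242.1 and 186.5 CPM per kb in control 1, 2 and 4 and to 95.3, 158.2 and 128.1 CPM per kb in phlebotomy 1, 2 and 4. Bmp2 made up 83.9%, 83.0% and 82.5% of that sum in the control libraries and 79.1%, 80.4% and 78.0% in phlebotomy 1, 2 and 4. Its share was thus lower in each phlebotomy library than in any control, while those of Bmp4 and Bmp5 were higher in each. Bmp4 held 4.58% to 5.14% of the sum in control and 6.23% to 7.32% after phlebotomy, and Bmp5 held 0.994% to 1.23% and 1.30% to 2.54%. The shares of Bmp3, Bmp6 and Bmp7 overlapped between groups, for Bmp6 only through phlebotomy 2. Bmp6 held 1.87% to 2.17% in control and 2.64%, 2.12% and 3.34% in phlebotomy 1, 2 and 4. The 3 antagonists summed to 6.12 to 8.69 CPM per kb in control and 4.53 to 7.39 CPM per kb after phlebotomy, which overlap only through phlebotomy 2. For each 100 CPM per kb of ligand there were 2.53 to 3.65 CPM per kb of antagonist in control and 3.54 to 5.63 after phlebotomy, and control 4 and phlebotomy 4 overlapped. These shares are given as descriptions, and the difference in response between ligands and antagonists was not tested.

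**Figure D3:**
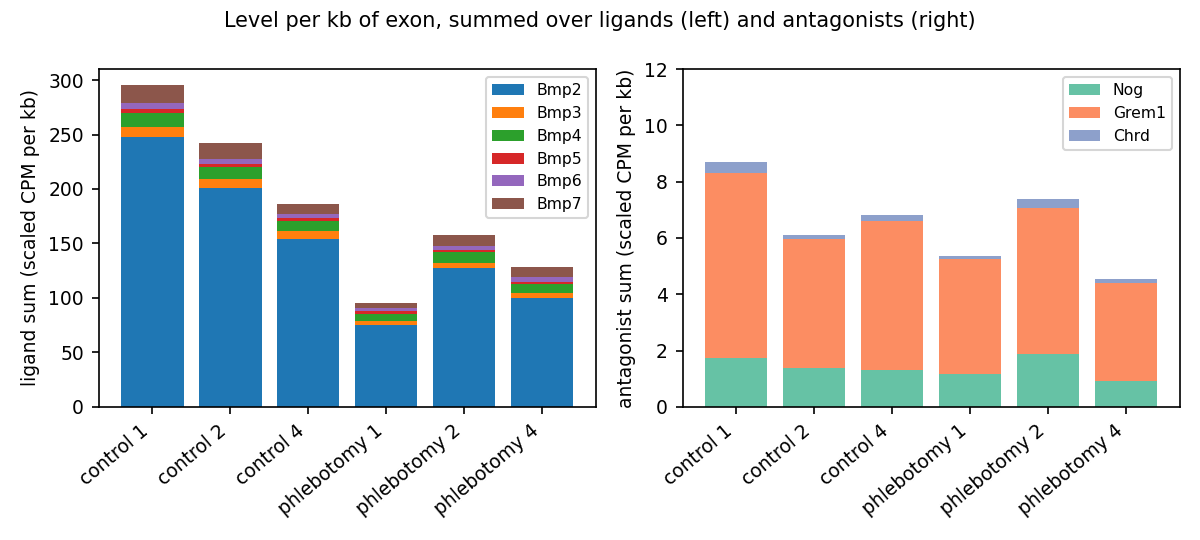
Scaled CPM per kb of exon, stacked over the 6 ligands (left) and the 3 antagonists (right), in each of 6 libraries. Bmp2 fills 78.0% to 83.9% of the ligand bars, which are lower in the 3 phlebotomy libraries, whereas the antagonist bars of the groups overlap.

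The members also differed in their pattern over the 6 libraries. Likeness was measured as the root-mean-square difference of log2 levels, each centred on its mean over the 6 libraries. Bmp2 and Bmp3 were the most alike of all pairs (0.124), and Bmp7 was next to Bmp2 (0.189). In these 3 genes phlebotomy 1 was the lowest library and control 1 the highest, but so they were in Bmp4, Bmp6 and Chrd. Nog and Grem1 formed the second closest pair (0.175), Bmp4 and Bmp6 were at 0.191, and Bmp5 and Chrd were the least alike (0.543). Among all protein-coding genes tested, Piezo1, a mechanically gated ion channel of bone cells, and Amotl2, an angiomotin family member, were nearest to Bmp2 (0.061 and 0.064, against a median of 0.57). Plcd1, a phospholipase C, and Ptprm, a receptor tyrosine phosphatase, were nearest to Bmp3 (0.061 and 0.068). Ccn4, a matricellular protein of the osteoblast lineage, and Lpar3, a receptor for lysophosphatidic acid, were nearest to Bmp7 (0.082 and 0.083). Nearest to Bmp4 were Ern1 and Pik3r1 (0.037 and 0.038), and to Bmp6 the splicing factors Snrnp200 and Prpf8 (0.050 and 0.052). For Bmp5 they were Eif1a and Pdcl (0.023 and 0.031), for Grem1 Dcakd and Tmem158 (0.044 and 0.048), for Nog Ushbp1 and Fntb (0.051 and 0.053), and for Chrd Ppm1j and Galnt15 (0.175 and 0.178). Without phlebotomy 2, Bmp2 and Bmp3 were at 0.136 and Nog and Grem1, then the closest pair, at 0.107, and 3 of the 18 neighbours named were still among the nearest 2 of their member. With 6 libraries and 14128 protein-coding genes such neighbours are a description, and a member that varies little has close neighbours.

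The mean sums of osteocyte and osteoblast markers were lower in the phlebotomy libraries, as was the mean of Bmp2. In bulk RNA, fewer cells of a type and less RNA per cell cannot be told apart. The summed osteocyte markers gave 50200, 46750 and 23580 CPM for control 1, 2 and 4, against 13240, 25570 and 23350 CPM for phlebotomy 1, 2 and 4, and 7 of 8 had a log2 fold change below 0 (median -0.65), as had 50.2% of all genes. The overlap of these sums rests on phlebotomy 2. Osteoblast markers summed to 21770 to 32120 CPM in control and 6701 to 20780 CPM after phlebotomy, with 7 of 7 below 0 (median -0.47) against 50.2% of all genes. Without phlebotomy 2 their median was -0.93 and 5 of 7 passed, in a fit that called 2.99% of genes lower. Per 1000 CPM of the osteocyte sum, Bmp2 was at 17.55, 15.29 and 23.20 CPM in control 1, 2 and 4 and at 20.25, 17.69 and 15.21 CPM in phlebotomy 1, 2 and 4. On that scale the groups overlapped, with means of 18.7 ± 4.08 and 17.7 ± 2.52 (SD, n = 3), and so did those of Bmp3, at 1.602 ± 0.574 and 1.503 ± 0.138. Per 1000 CPM of the osteoblast sum Bmp2 was at 25.13 to 32 CPM in control and 21.77 to 40.02 CPM after phlebotomy, where phlebotomy 2 was the lowest of all and the other treated libraries lay above every control. On the osteoblast scale Grem1 was higher in every phlebotomy library, at 1.03 to 2.51 CPM against 0.849 to 1.01 in control, as were Nog and Chrd. For these antagonists the scale was not repeated without Col1a1, whose mean was 21480 CPM in control and 9390 CPM after phlebotomy. The share of all genes that are higher on that scale was not counted. These scales turn on single genes: Dmp1 made up 82.1% to 90.5% of the osteocyte sum and Col1a1 71.1% to 85.5% of the osteoblast sum. Without Dmp1 the groups of Bmp2 overlapped still, at 129.8 to 160.8 CPM in control and 101.5 to 154.8 CPM after phlebotomy per 1000 CPM of the other osteocyte markers, but not when phlebotomy 2 was left out too. Without Col1a1, Bmp2 per 1000 CPM of the other osteoblast markers was lower in every phlebotomy library, at 115.0 to 148.8 CPM against 173.5 to 200.2 CPM. Set against single osteocyte markers, Bmp2 overlapped between groups for 4 of 8 (Dmp1, Sost, Mepe and Phex), was lower after phlebotomy for 3 (Fgf23, Pdpn and Ackr3) and higher for 1 (Fbln7). Against single osteoblast markers it overlapped for 4 of 7 and was lower for 3 (Alpl, Ibsp and Sp7). These markers were chosen by list and named here after their values were seen, and the part of cell composition in the result was not tested.

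**Figure D4:**
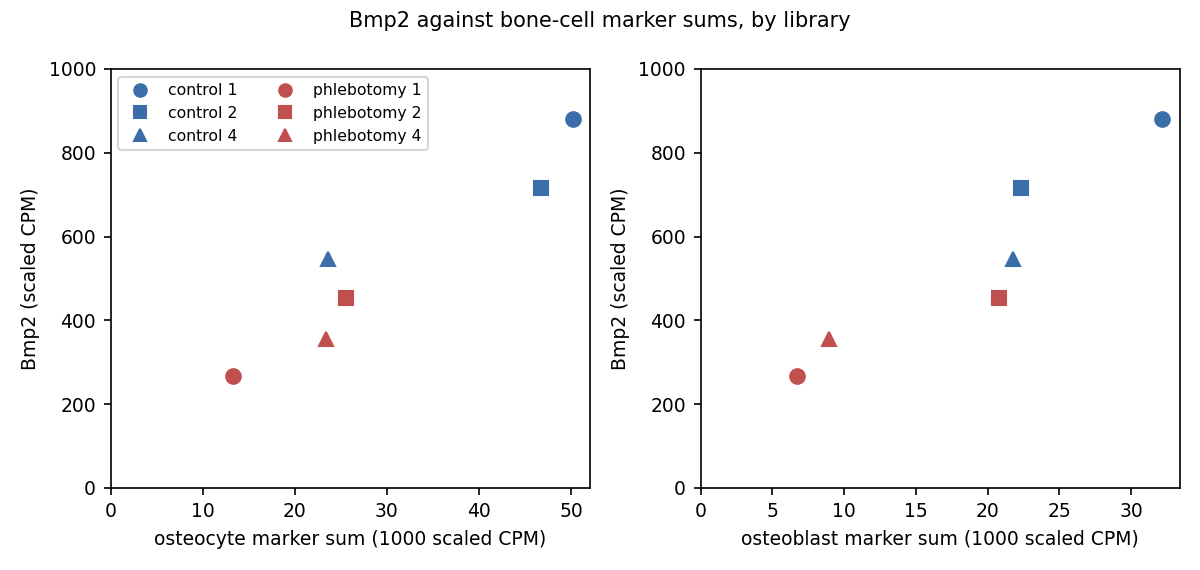
Bmp2 (scaled CPM) against the summed level of 8 osteocyte markers (left) and 7 osteoblast markers (right), in units of 1000 scaled CPM, 1 point per library. Control 1 is the highest and phlebotomy 1 the lowest on every axis, and phlebotomy 2 and 4 lie beside control 4 on the osteocyte axis but below it in Bmp2.

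Endothelial markers, which could carry Bmp6 and Bmp4, summed to 425.9 to 515.6 CPM in control and 392.5 to 502.3 CPM after phlebotomy, with all 6 detected and groups that overlap. Markers of CXCL12-abundant reticular cells summed to 899.7 to 1147 and 844.2 to 936.8 CPM, and megakaryocyte markers to 588.7 to 1307 and 626.9 to 1064 CPM, in control and phlebotomy libraries. Chondrocyte markers, of which 6 of 6 were detected, summed to 305.7 to 883.8 CPM in control and 223.3 to 493.2 CPM after phlebotomy. Those of periosteal cells and fibroblasts were lower in every phlebotomy library, at 362.8 to 657.8 CPM against 766.8 to 1035 CPM. B-lineage markers summed to 188.8 to 251.4 and 127.4 to 209.1 CPM. Without phlebotomy 2 the sums of endothelial and B-lineage markers lay below all controls. Osteoclast markers differed in the other direction. Their sum was at 1068, 1460 and 2352 CPM in control 1, 2 and 4 and at 2571, 1141 and 2956 CPM in phlebotomy 1, 2 and 4, so that phlebotomy 2 alone made the groups overlap. Of these 6 markers 6 had a log2 fold change above 0 (median 0.44, or 0.75 without phlebotomy 2), as had 9376 of the 18838 genes tested. None was called with all libraries. Leaving out phlebotomy 2 gave 2 calls (Ctsk and Atp6v0d2, both higher, named after their values were seen), in a fit that called 1.75% of genes higher. The part of these cell types in the members' levels was not tested.

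The rest of the BMP pathway was described with 61 other genes, of which 47 passed the filter. None was called in either direction over all genes in edgeR. An unadjusted p under 0.05 was reached by 24 of the 47 in the lower direction and by 0 in the higher, against 9.42% and 7.01% of all genes, and the median log2 fold change was -0.43 against -0.00. Leaving out phlebotomy 2 gave 11 calls among the 47, all lower, where 2.99% of genes were called lower. Leaving out phlebotomy 1 gave 0 calls, in a fit that called 0% of all genes lower. In that fit 13 of the 47 had a lower level and an unadjusted p under 0.05, against 4.14% of genes.

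Among other ligands 4 of 10 were tested and 1 had an unadjusted p under 0.05, in the lower direction, against 9.42% of all genes. Bmp8a was at 451.7, 390.6 and 224.0 CPM in control 1, 2 and 4 and at 115.0, 246.0 and 195.5 CPM in phlebotomy 1, 2 and 4. Per kb its control mean of 147.8 CPM was second to that of Bmp2 among the ligands tested. Control 4 lay below phlebotomy 2, so the groups overlapped, at a log2 fold change of -0.86 ± 0.28 (SE, edgeR adjusted p 0.202), or -1.11 without phlebotomy 2 (adjusted p 0.0555). Its relative Bmp8b may share reads with it, which was not measured, so both values may be uncertain. Bmp8b and Gdf10 had log2 fold changes of -0.71 and -0.35 (edgeR adjusted p 0.412 and 0.542), and of -1.17 and -0.67 without phlebotomy 2 (adjusted p 0.0778 and 0.154).

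Of 15 further secreted proteins that bind or modulate BMPs, 11 were tested, and 6 had an unadjusted p under 0.05, all lower, against 9.42% of all genes. Chrdl1, a relative of chordin that binds BMPs, was far more abundant than Chrd, at 96.9, 75.7 and 79.0 CPM in control 1, 2 and 4 and at 39.3, 38.1 and 52.1 CPM in phlebotomy 1, 2 and 4. Its groups did not overlap, and per kb it stood at 12.4 CPM in control against 0.250 for Chrd. The log2 fold change was -0.86 ± 0.19 (SE, edgeR adjusted p 0.139), and Chrdl1 passed without phlebotomy 2 (-0.79, adjusted p 0.0446). Crim1, a transmembrane protein that binds BMPs, and Htra1, a serine protease that binds TGF-beta family members, had log2 fold changes of -0.60 ± 0.18 and -0.66 ± 0.20 (SE, edgeR adjusted p 0.180 and 0.187), both with groups that did not overlap. Without phlebotomy 2, Crim1 passed (-0.79, edgeR adjusted p 0.0382) and Htra1 did not (-0.76, adjusted p 0.0709), in a fit that called 2.99% of genes lower.

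Proteases that mature BMP precursors or release BMPs from chordin were tested in 6 of 7 cases. Of these, 4 had an unadjusted p under 0.05, all lower, against 9.42% of all genes. Pcsk6, a proprotein convertase that cuts BMP precursors, was at 413.7, 296.1 and 277.7 CPM in control 1, 2 and 4 and at 98.4, 220.5 and 186.6 CPM in phlebotomy 1, 2 and 4. All treated libraries lay below all controls (log2 fold change -0.89 ± 0.25 SE, edgeR adjusted p 0.172). Furin, a widely expressed convertase that cuts BMP precursors, was at 250.7 to 263.0 CPM in the control libraries and 116.8 to 210.3 CPM after phlebotomy (-0.68 ± 0.20 SE, edgeR adjusted p 0.172). Pcsk5 had a log2 fold change of -0.69 ± 0.23 (SE, edgeR adjusted p 0.200). Without phlebotomy 2 these convertases passed over all genes, with edgeR adjusted p of 0.0432, 0.0243 and 0.0291, in a fit that called 2.99% of genes lower.

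Receptors and co-receptors were tested in 10 of 13 cases, of which 4 had an unadjusted p under 0.05, all lower, against 9.42% of all genes. Acvr1, a type I receptor also called ALK2, had a log2 fold change of -0.61 ± 0.20, the co-receptor Neo1 of -0.56 ± 0.20 and the decoy receptor Bambi of -0.39 ± 0.15 (SE, edgeR adjusted p 0.202, 0.218 and 0.249). Without phlebotomy 2 these were at -0.69, -0.62 and -0.45 (edgeR adjusted p 0.0915, 0.106 and 0.125). The SMADs of the pathway were tested in 4 of 4 cases, and 2 had an unadjusted p under 0.05, both lower, against the same 9.42%. Smad1, Smad5 and Smad4 had log2 fold changes of -0.42, -0.58 and -0.34 (edgeR adjusted p 0.241, 0.261 and 0.333), and of -0.51, -0.64 and -0.45 without phlebotomy 2 (adjusted p 0.0974, 0.165 and 0.155).

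BMP target genes, of which 12 of 12 were tested, had log2 fold changes below 0 in all 12, against 50.2% of all genes. Of them, 7 had an unadjusted p under 0.05, against 9.42% of all genes in the lower direction. Dlx3, a homeobox gene of bone and skin, was at 44.6, 52.2 and 46.0 CPM in control 1, 2 and 4 and at 16.04, 33.5 and 22.6 CPM in phlebotomy 1, 2 and 4. Its groups were apart, and the log2 fold change was -0.91 ± 0.22 (SE, edgeR adjusted p 0.139). Dlx5, a homeobox gene of osteoblasts, and Smad6, which inhibits BMP signalling, had log2 fold changes of -0.74 ± 0.20 and -0.61 ± 0.19 (SE, edgeR adjusted p 0.160 and 0.191). Without phlebotomy 2, Dlx3, Dlx5 and Smad6 passed over all genes, with edgeR adjusted p of 0.0171, 0.0352 and 0.0495, in a fit that called 2.99% of genes lower. Whether any of these lists differs from other genes of bone cells was not tested.

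**Figure D5:**
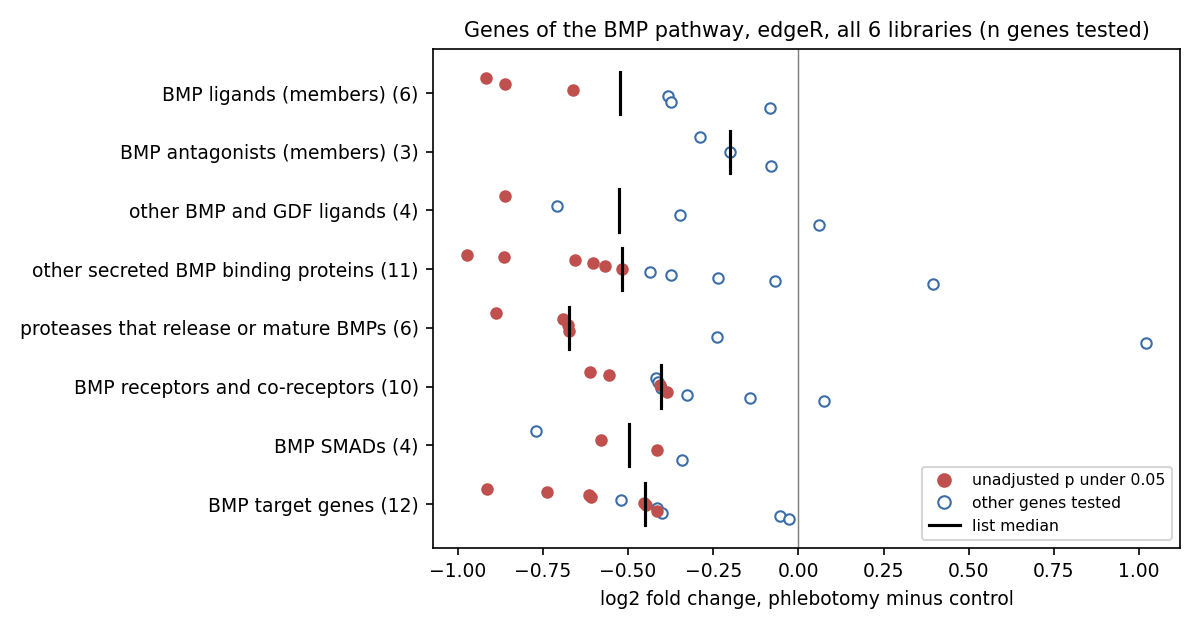
edgeR log2 fold change (phlebotomy minus control, all 6 libraries) of each tested gene of the BMP pathway by role, with list medians (black lines) and genes at an unadjusted p under 0.05 filled. List medians run from -0.67 for the proteases to -0.20 for the 3 antagonists among the members, and no gene passed over all genes tested.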

How the data were processed

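Femur RNA of 3 control and 3 phlebotomy libraries was read in 126 bp paired-end mode after Nextera XT, per the labels' protocols. Builds GRCm38.p3 and mm10, STAR 2.5.2a and 2.7.3a, limma, edgeR and DESeq2 appear in the submitters' processing notes, with no roles; the counting program is not given in the sources used here. The authors deposited raw counts, a filtered copy of them, and a signal table of TMM-scaled CPM, from which levels were taken. The 19 rows that name no mouse gene (0.00278% to 0.0284% of counts) were left out of tests.

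Counts were filtered (filterByExpr, minimum count 10), scaled with TMM, and fitted in edgeR 4.0.16 (R 4.3.3) for its robust quasi-likelihood test, with Benjamini-Hochberg adjustment over 18838 genes. The SE is the log2 fold change over the root of F. Coordinates and lengths came from GENCODE M21 (GRCm38). In simulated data edgeR recovered 66% of 100 genes changed 2-fold and 95% of 100 changed 4-fold, with 15 false calls in 176. The changed genes were drawn only from genes with higher mean counts than Nog and Chrd. No simulated library was made to differ as phlebotomy 2 does, so these shares need not hold for the members. Alternatives used DESeq2 1.42.0 and limma 3.58.1, other scaling and filters, a replicate block and left-out libraries; the removal of a GC and length trend (mgcv 1.9.3) was added after seeing the data. No library pair agreed within sampling noise, measured as chi-square per degree of freedom of the counts. By that measure phlebotomy 2 was nearest to control 4 (16.43) and control 2 (19.13). It stood at 33.41 from phlebotomy 4, 38.48 from control 1 and 58.41 from phlebotomy 1. Members, lists and naming rule (all members, the 3 smallest p per pathway list, the 2 genes nearest each member) were chosen with earlier results of these data known. Marker lists are given as sums, so the single marker genes that the naming rule covers are not listed.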

Additional observations from a re-analysis of the deposited data

Results flagged for a closer look

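The count table holds rows for transgene and vector sequences that no comparison used. In phlebotomy 2 the Neo row held 2288 counts, the EGFP row 920 and the DsRed row 403, where the highest control library held 12, 6 and 0. All groups are labelled WT. Groups of 3 libraries are too small for a test of single outlying values.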

How the results depend on the processing

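Counts of called genes depended on the setting. With no low-count filter 166 genes were higher and 411 lower, 3 members among them (Bmp2, Bmp3 and Bmp7). Over the genes of the deposited filtered table the counts were 6 and 14, and in DESeq2 78 and 206, 2 members among them, against 3 and 0 in edgeR with all libraries; limma-voom called 0 in either direction, with 1182 higher and 1805 lower at an unadjusted p under 0.05. With a library left out 0 to 356 genes were higher and 0 to 607 lower, and 0 to 2 members were lower, the upper values all without phlebotomy 2 and the 0 higher genes without phlebotomy 1. Phlebotomy lay below control without overlap for 2 to 7 of the 9 members with a library left out, against 2 with all. The 7 came without phlebotomy 2, where the share of all genes was 29.9%, against 14.5% with all libraries. For the other libraries left out the share of all genes was not counted. The log2 ratio of mean Bmp2 per osteoblast marker sum went from 0.263 to -0.446 without Col1a1, and that per osteocyte sum from -0.077 to -0.229 without Dmp1, both chosen after seeing the data. Without control 2 the counts of genes were 12 and 2, and without control 4 they were 5 and 2; without control 1, 1 gene was lower. Bmp2, Bmp3, Bmp4, Bmp6, Bmp7 and Grem1 kept a negative log2 fold change in all 17 alternatives. Bmp5 turned to 0.066 with library size alone and 0.007 with upper quartile scaling, and ran from -0.192 to 0.005 (without control 1) with a library left out. Nog turned to 0.057 with library size alone, and to 0.029, 0.004 and 0.107 without control 1, phlebotomy 1 and phlebotomy 4, with a range of -0.405 to 0.107. Chrd turned to 0.219 without control 1 and 0.062 without phlebotomy 1, with a range of -0.706 to 0.219. Library size alone moved the median of all genes to 0.14, and lower genes then made up 25.3% of those at an unadjusted p under 0.05 against 57.3% with TMM (38.4% with upper quartile scaling, and 74.9% and 74.7% with limma-trend at pseudocounts of 0.5 and 1); relative to that median Bmp5 and Nog were lower. Per kb of the longest transcript Bmp3 was at 8.91 CPM in control. Deviations from the group mean had correlations of -0.292, -0.139 and -0.292 between same-numbered libraries and of -0.07 to 0.275 between the others. Deviations within a group of 3 sum to 0, so these correlations cannot show whether the numbers pair libraries. With the replicate block 3 genes were higher and 0 lower, and Bmp2 and Bmp3 had edgeR adjusted p of 0.297 and 0.266. The depth limits Nog and Chrd, at 14 to 48 counts per library.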
